A study of Homo sapiens with 6 samples.

Results

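Expression of 37 genes of glucose uptake, glycolysis, lactate handling and gluconeogenesis was examined in HCCLM3, a human hepatocellular carcinoma (HCC) cell line, with and without overexpression of *PON1*, which encodes the liver-secreted lactonase paraoxonase 1. The genes were taken by symbol from the deposited table. All 37 were found, among 20381 genes in the table. Of these, 30 passed the filter on low counts and were tested among 11958 genes. The other 7 (*SLC2A2*, *SLC2A3*, *PKLR*, *PFKFB1*, *G6PC1*, *FBP1* and *PCK1*) had too few counts.

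Glycolysis converts glucose to pyruvate in the cytosol, and lactate dehydrogenase turns pyruvate into lactate, which leaves the cell through monocarboxylate transporters. The liver can run much of this pathway backwards and release glucose, and hepatocytes use their own isozymes for several steps, such as GLUT2 and the liver pyruvate kinase. Tumor cells often express the widespread isozymes in their place and take up large amounts of glucose. Many glycolytic genes are known targets of the hypoxia-inducible factor HIF-1 and of MYC.

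RNA-seq libraries of poly(A) RNA were made from PON1-OE and NC cells, 3 libraries per group. Nothing in the sources used here ties replicates to separate cultures, and p-values therefore measure the spread between these libraries, which may be technical. PON1-OE cells carried the full-length *PON1* coding sequence from a lentivirus and NC cells an empty lentiviral vector, both selected with puromycin and grown in RPMI-1640. The promoter of the vector, and whether the lines are clones or pools, are not given in the sources used here. The series text states 15% serum and lysis 24 h after transfection, whereas the series title names a stable transfection and the paper a lower serum content.

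The estimated counts summed to 15706672 to 17948383 per library. Values per library are listed here in the order of replicates 1 to 3. *PON1* had 0, 2 and 3 counts in the controls and 155, 181 and 167 counts with overexpression, which is at least 60.0-fold higher in PON1-OE against a floor of 3 counts per NC library. Hepatocyte markers were present in part. *HNF4A*, *FOXA2*, *KRT8* and *KRT18* were expressed in every library, whereas *ALB* had 4 to 13 counts per library and *SERPINA1* and *TTR* at most 2. Of 15 such markers 11 were tested, and 0 were higher and 2 lower (*APOB* and *APOH*) at an unadjusted p under 0.05 in edgeR. Over all genes tested 5.91% were higher and 5.17% lower. The summed level of the 15 markers was 3881 to 4388 counts relative to library size (CPM) in NC and 4032 to 4275 CPM in PON1-OE. Their part in the results was not tested. Of the 16 markers of blood, endothelial, stromal and bile duct cells, *PTPRC* and *CD3E* had no count in any library, 6 were tested and 0 of these had an unadjusted p under 0.05 (edgeR). The summed level of the 16 was 48.1 to 54.0 CPM in NC and 50.6 to 55.2 CPM in PON1-OE.

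Levels of different genes were compared as TPM, a scale of fixed total that divides counts by gene length, here the merged exon length in GENCODE v29. The 37 genes together made up 16320 to 16492 TPM in the NC libraries and 16833 to 17247 TPM in the PON1-OE libraries. *GAPDH*, the glyceraldehyde-3-phosphate dehydrogenase often used as a reference gene, had the highest level, 6149 ± 29.3 TPM in NC and 6323 ± 78.7 TPM in PON1-OE (SD, n = 3 each), and ranked 7 among all genes in PON1-OE. It was followed in PON1-OE by the enolase gene *ENO1* (1870.3 ± 10.02 TPM in NC and 1989 ± 14.3 TPM in PON1-OE), the triosephosphate isomerase gene *TPI1* (1673 ± 25.3 TPM in NC and 1735 ± 61.05 TPM in PON1-OE), the aldolase gene *ALDOA* (1488 ± 8.76 TPM in NC and 1591 ± 11.5 TPM in PON1-OE) and the pyruvate kinase gene *PKM* (981 ± 30.3 TPM in NC and 1008 ± 27.4 TPM in PON1-OE). In both groups these 5 genes kept this order, and neighbors in it were separated by more than the SD of either gene. The order depends on the gene length used, which the SD does not cover. *PKM* has a merged exon length of 8571 bases but a longest transcript of 3016. These lengths are 2700 and 1763 bases for *TPI1* and 3916 and 2534 bases for *ALDOA*.

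**Figure D1:**
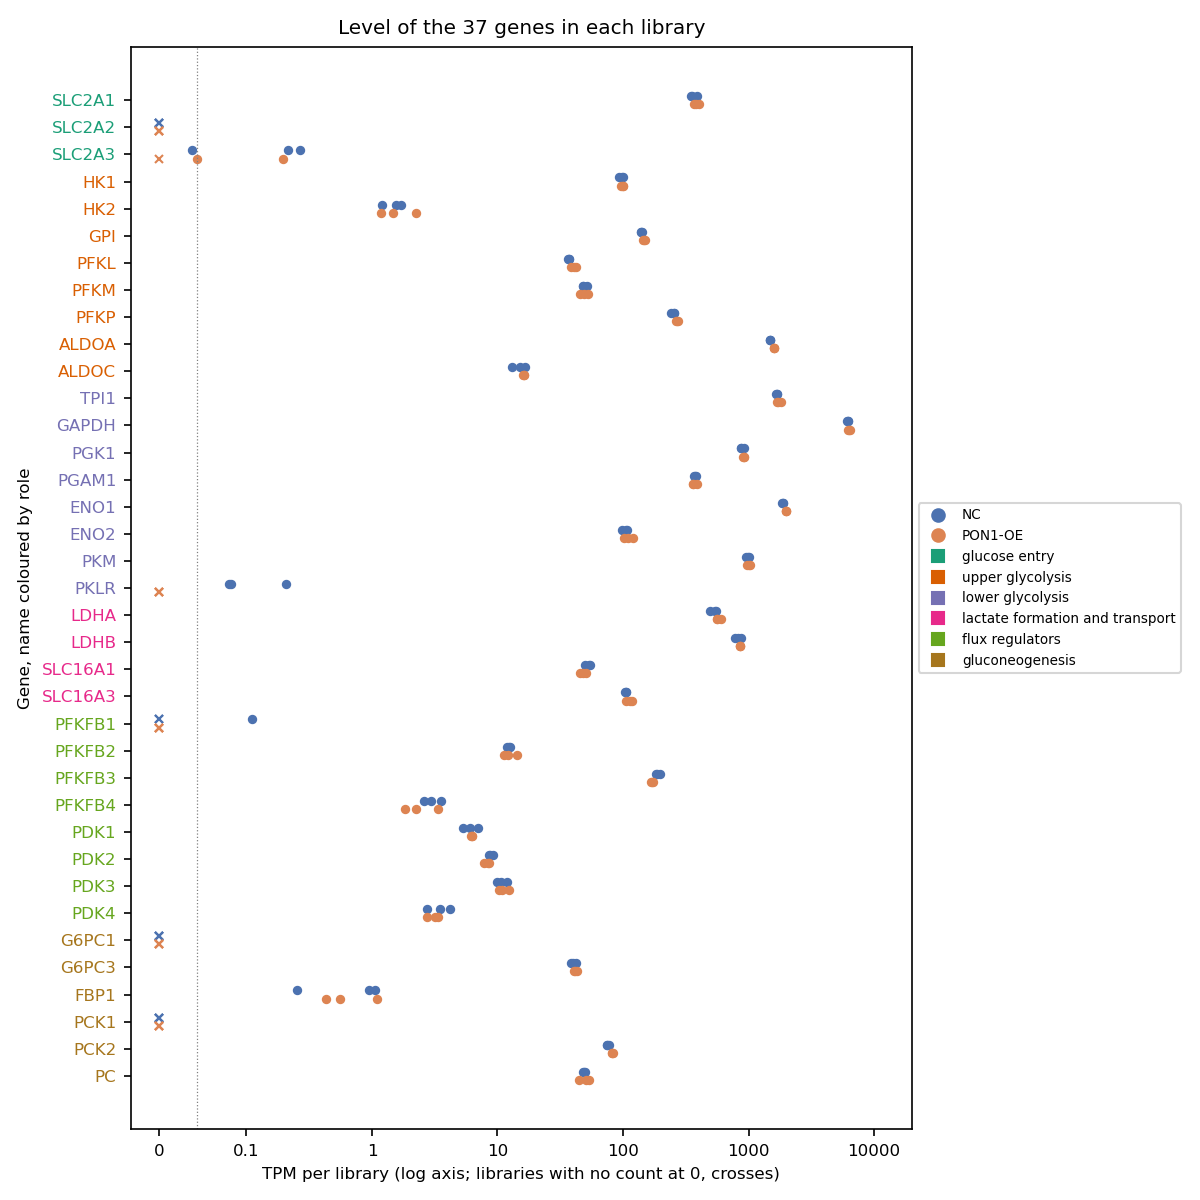
Level of each of the 37 genes in TPM (log axis) in the 3 NC and 3 PON1-OE libraries, with 1 point per library and crosses at the left for libraries with no count. *GAPDH* lies at the top of the range (mean 6323 TPM in PON1-OE) and *SLC2A2*, *G6PC1* and *PCK1* have no count in any library.

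Liver isozymes were mostly missing. *SLC2A2*, which encodes the hepatocyte glucose transporter GLUT2, *G6PC1*, which encodes the liver glucose-6-phosphatase that releases glucose, and *PCK1*, which encodes the cytosolic phosphoenolpyruvate carboxykinase, had 0 counts in all 6 libraries. A count of 0 allows up to 3 counts, or 0.166 to 0.192 CPM depending on the library, and this limit covers counting error only. *FBP1*, the liver fructose-1,6-bisphosphatase gene, had 7, 2 and 8 counts in the NC libraries and 8, 4 and 3 counts in the PON1-OE libraries, and the groups overlapped. *PKLR*, the gene of the liver and red cell pyruvate kinase, had 1, 3 and 1 counts in the NC libraries and 0, 0 and 0 counts in the PON1-OE libraries, at or under the floor of 3 counts in every library, so that no fold was computed. *PFKFB1* had 1 count in NC replicate 3 and 0 elsewhere. *SLC2A3*, which encodes the high-affinity transporter GLUT3, had 0 to 7 counts per library. Its near-identical neighbor *SLC2A14* had no count, and how reads shared by the pair were assigned is not given in the sources used here.

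In the comparison of PON1-OE with NC, none of the 30 tested genes passed a Benjamini-Hochberg adjusted p of 0.05 (edgeR, quasi-likelihood test), a count of 0 set against 0.677% of all 11958 genes tested, 0.502% higher and 0.176% lower. In these bulk libraries of HCCLM3, a change in the mix of cells within the line and a change in RNA per cell cannot be told apart. With limma-voom the count was also 0, and with DESeq2 it was 2, *ALDOA* (adjusted p = 0.00673) and *ENO1* (adjusted p = 0.00990), both higher in PON1-OE. The shares above are from edgeR. In DESeq2 15540 genes had a p-value, 34 of them members, and the number of all genes higher in that fit is given below. No member passed |log2FC| over 0.585 together with the adjusted p, the thresholds in the paper's methods, in edgeR or DESeq2, and 0.0502% of all genes tested did in edgeR. The estimates were small. All 30 log2FC values lay between −0.27 and 0.15, and 25 of them were positive and 5 negative. The median was 0.064 over the 30 genes and −0.0025 over all genes tested.

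At an unadjusted p under 0.05, 9 members were higher in PON1-OE and 1 was lower, where 5.91% of all genes tested were higher and 5.17% lower. The 9 were *SLC2A1*, *GPI*, *PFKL*, *PFKP*, *ALDOA*, *ENO1*, *LDHA*, *SLC16A3* and *PCK2*, and the lower gene was *PFKFB3*. The PON1-OE libraries lay wholly above the NC libraries in 8 of the 30 genes and wholly below in 2, where 8.32% of all genes tested lay above and 7.74% below. The same shares were also taken over genes with a mean of at least 100 CPM. Among the 2239 such genes 11.5% were higher and 6.92% lower at an unadjusted p under 0.05, with a median log2FC of 0.0050. Among the 16 members at this level 7 were higher and 1 was lower, with a median log2FC of 0.073.

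**Figure D2:**
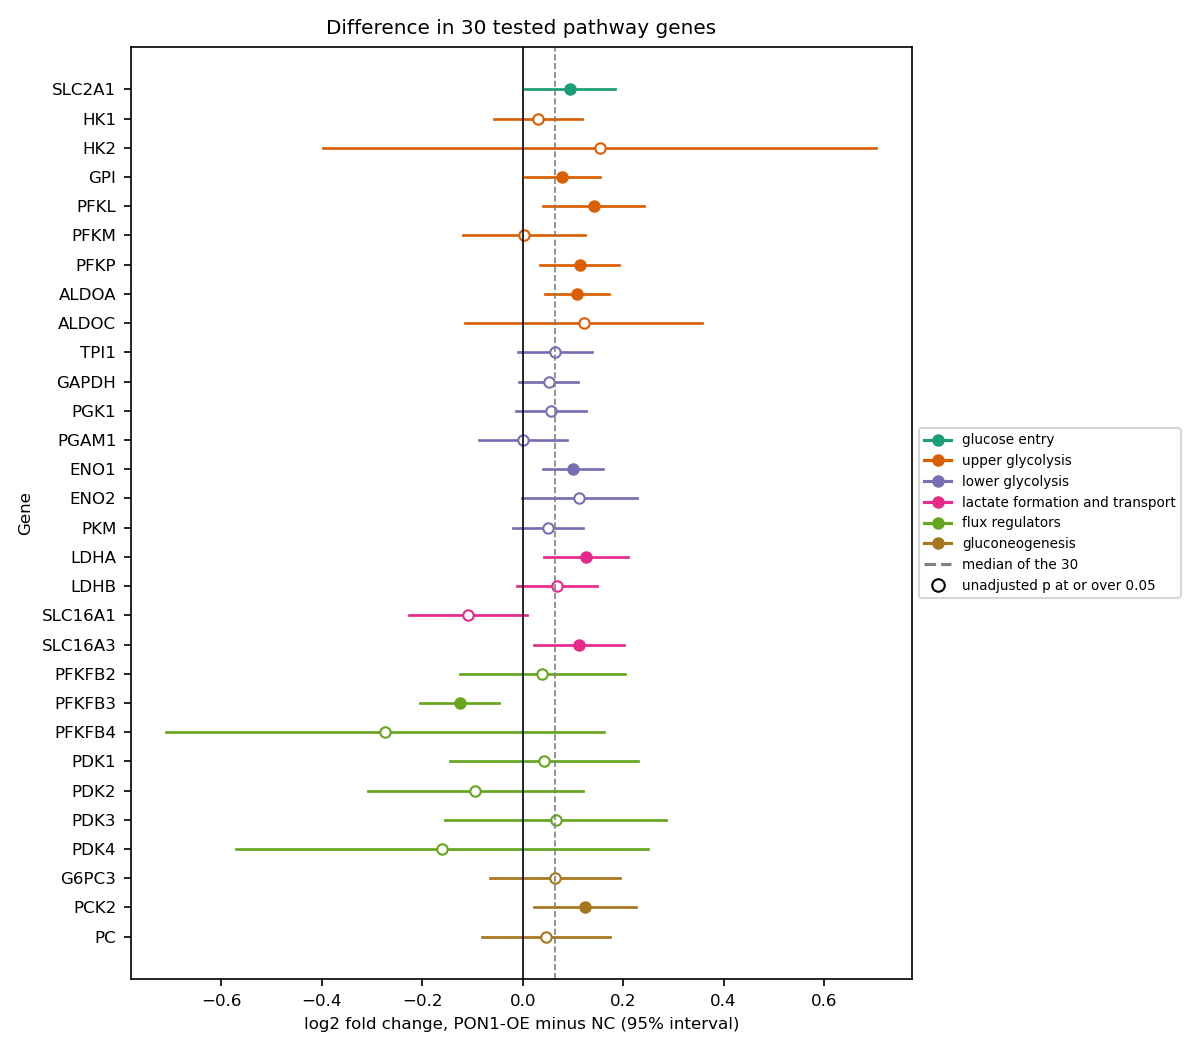
log2 fold change of PON1-OE against NC for the 30 tested genes, with 95% intervals from edgeR's quasi-likelihood fit, colored by role. Filled points have an unadjusted p under 0.05, and the dashed line is the median of 0.064. Most points lie right of 0, and the widest intervals belong to the low-count genes *HK2*, *PFKFB4* and *PDK4*.

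The shift was not equal between libraries. The median ratio of the 30 genes to their NC mean, on the log2 scale, was 0.0027, −0.0064 and 0.011 for NC and 0.041, 0.094 and 0.035 for PON1-OE. The 3 PON1-OE medians exceeded the 3 NC medians, and PON1-OE replicate 2 stood highest. This library held the highest CPM of 16 of the 30 genes, and NC replicate 2 the lowest CPM of 12. Without PON1-OE replicate 2 the median log2FC was 0.047, and 9 genes had an unadjusted p under 0.05. Without NC replicate 2 it was also 0.047, and 7 genes did. The share of all genes at that p was not taken with libraries left out.

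Of the 3 glucose transporter genes *SLC2A1* passed the filter, which encodes GLUT1, the widespread basal glucose transporter. Its level was 430.3, 464 and 421 CPM in the NC libraries and 445, 496 and 462 CPM with PON1-OE. The groups overlapped (log2FC 0.094, standard error 0.043, unadjusted p = 0.0415, adjusted p = 0.428 in edgeR), and the unadjusted p was above 0.05 when NC library 1 or 3 or PON1-OE library 2 or 3 was left out, reaching 0.232.

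All 8 genes of upper glycolysis, from hexokinase to aldolase, had a positive log2FC, with the sign of *HK2* and *PFKM* turning when single libraries were left out, and 4 had an unadjusted p under 0.05. *ALDOA*, whose product splits fructose-1,6-bisphosphate, had 1496, 1479 and 1486 CPM in the NC libraries and 1583, 1639 and 1585 CPM with PON1-OE. The PON1-OE libraries lay above the NC libraries (log2FC 0.11, standard error 0.030, unadjusted p = 0.00188, adjusted p = 0.137), a 1.08-fold difference. *ALDOA* shares exonic bases with another gene of the table on its strand in GENCODE v29, as do *GPI*, *PGK1*, *LDHB* and *PFKFB4*, and its values are uncertain to that extent, and its estimated counts were fractional in each of the 6 libraries. It had the lowest p of the members, ranking 164 among all genes tested. *PFKP*, the platelet-type phosphofructokinase gene often raised in tumors, had 316, 313 and 299.7 CPM in the NC libraries and 329.5, 347 and 328 CPM with PON1-OE (log2FC 0.11, standard error 0.038, unadjusted p = 0.00692, adjusted p = 0.226). *PFKL*, the liver-type phosphofructokinase gene, had 85.4, 84.1 and 83.3 CPM in the NC libraries and 95.7, 89.7 and 93.4 CPM with PON1-OE (log2FC 0.14, standard error 0.048, unadjusted p = 0.00799, adjusted p = 0.239). Neither gene had overlapping groups, with PON1-OE on the higher side. *GPI*, which encodes the isomerase between glucose-6-phosphate and fructose-6-phosphate, had 379.8, 384 and 384 CPM in the NC libraries and 392, 419 and 401 CPM with PON1-OE (log2FC 0.078, standard error 0.036, unadjusted p = 0.0399, adjusted p = 0.424). Its groups did not overlap, but its unadjusted p rose above 0.05 when any library other than PON1-OE replicate 1 was left out, reaching 0.128. It was above 0.05 with replicate numbers as a block too. *HK1*, *PFKM* and *ALDOC* had log2FC values of 0.031, 0.0021 and 0.12 with overlapping groups. *HK2*, the hexokinase gene induced in many tumors, was low, with 40, 47 and 32 counts in the NC libraries and 30, 57 and 36 counts in the PON1-OE libraries. Its 95% interval ran from −0.40 to 0.70, and any log2FC in that range is compatible with these counts.

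In lower glycolysis, from triosephosphate isomerase to pyruvate kinase, the 7 tested genes had log2FC values from 0.00040 for *PGAM1*, whose sign turned in 6 of the 16 fits, to 0.11 for *ENO2*. *ENO1*, which encodes the main enolase, had 2529, 2509 and 2518 CPM in the NC libraries and 2657, 2758 and 2684 CPM with PON1-OE. All PON1-OE libraries were above all NC libraries (log2FC 0.10, standard error 0.029, unadjusted p = 0.00249, adjusted p = 0.151). *GAPDH* had 4659, 4653 and 4725 CPM in the NC libraries and 4813, 4975 and 4758 CPM with PON1-OE, also without overlap, with a log2FC of 0.051 and a 95% interval from −0.0079 to 0.11 (unadjusted p = 0.0858, adjusted p = 0.5304). *PKM*, whose transcripts encode the muscle and tumor pyruvate kinases M1 and M2, had 2206, 2059.7 and 2176 CPM in the NC libraries and 2249.9, 2275 and 2143 CPM with PON1-OE. The groups overlapped, and the 95% interval of the log2FC ran from −0.020 to 0.12. Counts per gene do not separate the M1 and M2 transcripts. *TPI1* (log2FC 0.064), *PGK1* (log2FC 0.056) and *ENO2* had unadjusted p-values of 0.0821, 0.111 and 0.0542. GENCODE v29 lists 62 pseudogenes named after *GAPDH*, 13 after *PGAM1* and 6 after *LDHA*, none of which has a row in the count table, and whether reads passed between them and the parent genes was not tested.

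Among the genes of lactate formation and transport, *LDHA*, which encodes the muscle-type lactate dehydrogenase subunit that prevails in tumors, had 865, 784 and 872 CPM in the NC libraries and 957, 902 and 891 CPM with PON1-OE. The lowest PON1-OE library was above the highest NC library (log2FC 0.13, standard error 0.040, unadjusted p = 0.00516, adjusted p = 0.211), and the unadjusted p was 0.0548 without NC replicate 2. *LDHB*, the gene of the heart-type subunit, had 633, 592 and 662 CPM in the NC libraries and 649, 672 and 655 CPM with PON1-OE, with overlapping groups (log2FC 0.068, standard error 0.038, unadjusted p = 0.0922, adjusted p = 0.547). *SLC16A3*, which encodes the lactate exporter MCT4, had 245, 242 and 239 CPM in the NC libraries and 243, 269 and 273 CPM with PON1-OE. PON1-OE replicate 1 lay among the NC libraries and the other PON1-OE libraries above them (log2FC 0.11, standard error 0.043, unadjusted p = 0.0162, adjusted p = 0.3099). Its unadjusted p was above 0.05 when NC library 3 or PON1-OE library 2 or 3 was left out, reaching 0.111. *SLC16A1*, which encodes MCT1, a transporter that carries lactate in either direction, had 73.5, 71.8 and 68.02 CPM in the NC libraries and 61.7, 66.7 and 69.3 CPM with PON1-OE, with a negative log2FC and overlapping groups (log2FC −0.11, standard error 0.057, unadjusted p = 0.0686, adjusted p = 0.496). Both transporter genes share exonic bases with a gene on the opposite strand in GENCODE v29. So do the members *SLC2A1*, *PFKM*, *ALDOA*, *ALDOC*, *GAPDH*, *ENO1*, *PKLR*, *PFKFB2*, *PDK1*, *PDK2*, *FBP1* and *PC*. Whether counting used strand is not given in the sources used here.

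The flux regulators were mixed. *PFKFB3*, whose product makes fructose-2,6-bisphosphate and so stimulates phosphofructokinase, had 284, 303 and 291 CPM in the NC libraries and 263, 273 and 269 CPM with PON1-OE. The highest PON1-OE library lay under the lowest NC library (log2FC −0.13, standard error 0.038, unadjusted p = 0.00328, adjusted p = 0.172), a ratio of 0.917. Its unadjusted p was under 0.05 in all 16 fits, with a log2FC between −0.15 and −0.10. *PFKFB4* had 67, 99 and 79 counts in the NC libraries and 47, 86 and 55 counts in the PON1-OE libraries, a log2FC of −0.27 and a 95% interval from −0.71 to 0.16. The pyruvate dehydrogenase kinases inhibit the mitochondrial complex that turns pyruvate into acetyl-CoA, and their 4 genes were all low, at 3.08 to 11.2 TPM in PON1-OE. *PDK1*, a known HIF-1 target, had 23.01, 26.3 and 20.1 CPM in the NC libraries and 23.8, 23.95 and 23.7 CPM with PON1-OE (log2FC 0.042, standard error 0.090, unadjusted p = 0.647, adjusted p = 0.911), and *PDK2*, *PDK3* and *PDK4* had unadjusted p-values of 0.372, 0.544 and 0.423.

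Of the 6 gluconeogenic members *PCK2*, *PC* and *G6PC3* passed the filter. *PCK2*, the gene of the mitochondrial phosphoenolpyruvate carboxykinase, had 80.2, 79.1 and 83.6 CPM in the NC libraries and 86.5, 90.2 and 87.97 CPM with PON1-OE. The PON1-OE libraries lay above the NC libraries (log2FC 0.12, standard error 0.049, unadjusted p = 0.0193, adjusted p = 0.337), and the unadjusted p was above 0.05 without NC replicate 1 or NC replicate 2, reaching 0.0648. *PC*, which encodes pyruvate carboxylase, the enzyme that makes oxaloacetate from pyruvate, had 74.97, 71.7 and 74.1 CPM in the NC libraries and 76.5, 83.1 and 68.2 CPM with PON1-OE (log2FC 0.046, standard error 0.061, unadjusted p = 0.459, adjusted p = 0.843). *G6PC3*, the widely expressed glucose-6-phosphatase gene, had 46.9 ± 2.61 CPM in the controls and 48.98 ± 1.301 CPM with overexpression (SD, n = 3 libraries each) and overlapping groups.

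**Figure D3:**
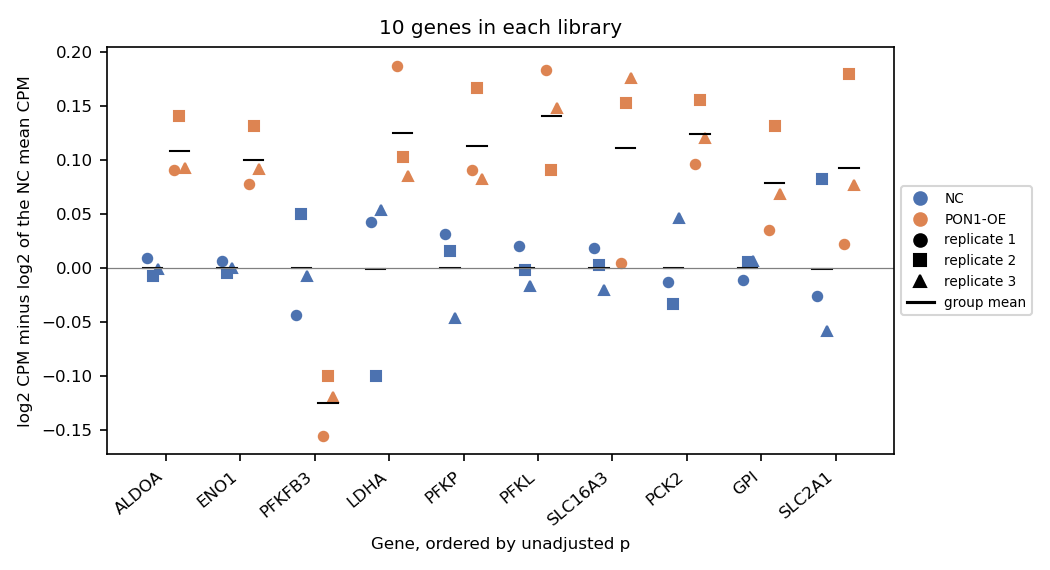
log2 CPM minus log2 of the NC mean CPM in each library for the 10 genes with an unadjusted p under 0.05, ordered by p, with black bars for group means. In 8 of the 10 genes the groups do not overlap, the exceptions being *SLC16A3* and *SLC2A1*, and *PFKFB3* is the gene with PON1-OE below NC. The groups do not overlap in 16.1% of all genes tested. The 10 genes were picked by p in this same comparison, so their separation follows in large part from the choice.

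An unadjusted p under 0.05 held in all 16 fits, the one described and 15 alternatives, for *ALDOA*, *ENO1*, *PFKP*, *PFKL* and *PFKFB3*. Over these fits the adjusted p ranged from 0.00673 to 0.374 for *ALDOA*, from 0.00990 to 0.401 for *ENO1*, from 0.122 to 0.607 for *PFKP*, from 0.127 to 0.567 for *PFKL* and from 0.0798 to 0.410 for *PFKFB3*. Taking GC content and transcript length out of log2 CPM with limma-trend left the same 10 genes at an unadjusted p under 0.05 and a median log2FC of 0.061.

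The proximal promoters of the 4 members with the lowest p are shown because 3 of them lay higher and 1 lower in PON1-OE, and because HIF-1 and MYC are known to bind short motifs in such regions. The sequences are from RefSeq on GRCh38.p14 and are 300 bases long, mostly upstream of the start that RefSeq annotates and reaching a little past it into the transcript, read in the direction of transcription. Capitals mark ACGTG or GCGTG, the core of the hypoxia response element, on either strand, and the E-box CACGTG, which contains ACGTG on both strands. The windows lie at chr16:30064029-30064328, plus strand (*ALDOA*), chr1:8878637-8878936, minus strand (*ENO1*), chr10:6144671-6144970, plus strand (*PFKFB3*) and chr11:18394313-18394612, plus strand (*LDHA*). The genes themselves span chr16:30064164-30070457 (plus strand), chr1:8861000-8879250 (minus strand), chr10:6144934-6254644 (plus strand) and chr11:18394388-18408425 (plus strand) in GENCODE v29 on GRCh38.
ALDOA: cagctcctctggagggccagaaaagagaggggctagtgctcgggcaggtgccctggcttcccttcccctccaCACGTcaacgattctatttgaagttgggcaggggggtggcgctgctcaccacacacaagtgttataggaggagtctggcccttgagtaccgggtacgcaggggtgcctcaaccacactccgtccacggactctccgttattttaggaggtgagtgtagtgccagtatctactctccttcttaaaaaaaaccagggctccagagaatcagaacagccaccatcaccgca
ENO1: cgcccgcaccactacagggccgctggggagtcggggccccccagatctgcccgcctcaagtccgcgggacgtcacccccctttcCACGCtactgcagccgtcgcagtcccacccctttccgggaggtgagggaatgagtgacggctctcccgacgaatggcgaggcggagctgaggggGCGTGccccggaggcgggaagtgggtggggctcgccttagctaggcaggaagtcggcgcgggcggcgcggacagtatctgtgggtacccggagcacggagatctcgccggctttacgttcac
PFKFB3: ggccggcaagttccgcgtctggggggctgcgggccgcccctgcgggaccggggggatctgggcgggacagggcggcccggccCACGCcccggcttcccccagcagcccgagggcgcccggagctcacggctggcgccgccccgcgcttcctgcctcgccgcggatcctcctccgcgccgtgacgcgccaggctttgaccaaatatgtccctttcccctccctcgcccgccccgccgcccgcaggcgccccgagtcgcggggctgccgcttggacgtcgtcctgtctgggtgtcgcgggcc
LDHA: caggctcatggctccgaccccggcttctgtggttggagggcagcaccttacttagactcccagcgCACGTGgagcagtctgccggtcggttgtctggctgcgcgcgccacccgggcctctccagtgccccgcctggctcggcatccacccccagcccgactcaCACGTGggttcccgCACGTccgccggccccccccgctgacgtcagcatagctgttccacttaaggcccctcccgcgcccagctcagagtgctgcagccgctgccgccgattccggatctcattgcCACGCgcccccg

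All 4 windows held the hypoxia response core in some form, and the *LDHA* window held it most often and was the only one of the 4 with the E-box. Promoters were found for 33 of the 37 genes, and ACGTG or GCGTG occurred in 21 of these, while 48.4% of the 35116 promoters of the same length held it. Among the 10 genes with an unadjusted p under 0.05 it occurred in 7. The E-box occurred in 5 of the 33 and in 7.26% of all promoters. For the members a single promoter per gene was taken, the first listed, whereas the 35116 were all promoters in the source. Whether the starts taken are the ones used in HCCLM3 was not tested. The members and the other promoters were not matched for GC content. These are matches of letters and not sites shown to be bound.

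Isozyme use was compared as the share of each gene in the summed TPM of its family. In the hexokinase family *HKDC1*, a hexokinase domain gene outside the 37, made up 80.1% ± 1.55 in NC and 79.8% ± 0.826 in PON1-OE (SD, n = 3 each) and *HK1* 19.6% ± 1.49 in NC and 19.9% ± 0.716 in PON1-OE. *PFKP* made up 74.4% ± 0.992 in NC and 75.04% ± 0.361 in PON1-OE of the phosphofructokinases, *PFKM* 14.6% ± 0.947 in NC and 13.7% ± 0.782 in PON1-OE and *PFKL* 10.97% ± 0.04998 in NC and 11.3% ± 0.694 in PON1-OE. *LDHB* exceeded *LDHA* per length, since *LDHA* made up 39.1% ± 0.481 in NC and 40.05% ± 1.21 in PON1-OE of the lactate dehydrogenases. With the longest transcript as gene length the *LDHA* share in NC was 45.96%. *ALDOA* made up nearly all of the aldolases. *PFKFB3* made up 92.4% ± 0.239 in NC and 91.9% ± 0.538 in PON1-OE of its family.

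The shares of *SLC16A1* and *SLC16A3* were the ones that differed without overlap among the 20 shares between 1% and 99%. For comparison, the CPM of single genes did not overlap between groups in 16.1% of all genes tested. *SLC16A1* made up 33.7%, 33.4% and 32.6% in the NC libraries and 30.1%, 29.6% and 30.04% in the PON1-OE libraries of the summed TPM of *SLC16A1*, *SLC16A3* and *SLC16A7*. The mean was 33.2% ± 0.588 in NC and 29.9% ± 0.2903 in PON1-OE, a difference of −3.30 percentage points (p = 0.1 in a two-sided exact permutation test, which cannot go lower with 3 libraries per group, Benjamini-Hochberg adjusted p = 0.727 over the 20 shares). *SLC16A7* had at most 1 count per library, so the *SLC16A3* share was the near mirror, 66.8% ± 0.588 in NC and 70.1% ± 0.294 in PON1-OE. The difference in the *SLC16A3* share was 3.06 to 3.63 percentage points when single libraries were left out.

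**Figure D4:**
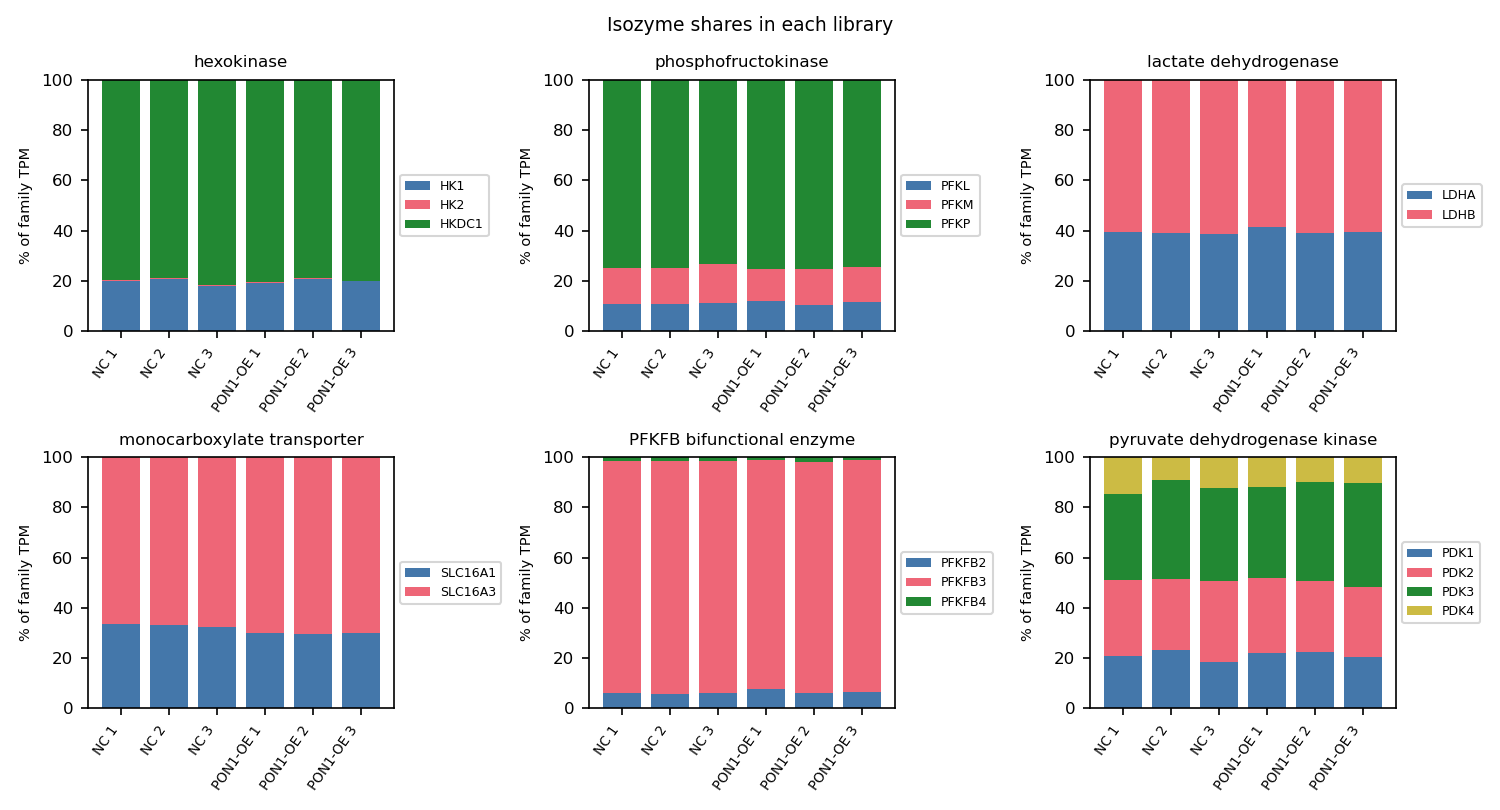
Share of each isozyme in the summed TPM of its family, in percent, in each of the 6 libraries for 6 families (genes with a mean share under 0.1% not drawn). *HKDC1* and *PFKP* hold most of their families in every library, and the *SLC16A1* part of the monocarboxylate transporter bars is lower in the 3 PON1-OE libraries.

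Neighboring genes of the pathway were taken from 5 further lists. Of 26 genes on side branches of glycolysis 25 were tested. Of these 2 rose in PON1-OE at an adjusted p under 0.05, where 0.502% of all genes tested did. Both act in serine synthesis, which branches off at 3-phosphoglycerate, and *PSPH*, the gene of the last enzyme of this route, did not pass (log2FC 0.070, standard error 0.054, unadjusted p = 0.215, adjusted p = 0.696, groups overlapping). *PHGDH*, the gene of its entry enzyme, had 148, 132 and 142 CPM in the NC libraries and 168, 181 and 154 CPM with PON1-OE (log2FC 0.25, standard error 0.055, unadjusted p = 0.000141, adjusted p = 0.0325). *PSAT1*, the gene of the next enzyme, had 497, 468 and 486 CPM in the NC libraries and 545, 551 and 525 CPM with PON1-OE (log2FC 0.16, standard error 0.035, unadjusted p = 0.000199, adjusted p = 0.03799). In both genes the PON1-OE libraries lay above the NC libraries. The adjusted p of *PHGDH* was above 0.05 when NC library 2 or 3 or PON1-OE library 1 or 2 was left out, and that of *PSAT1* without any 1 of the 6 libraries, reaching 0.172 and 0.194. With replicate numbers as a block they were 0.0689 and 0.105, and the log2FC stayed between 0.20 and 0.31 for *PHGDH* and between 0.14 and 0.18 for *PSAT1* over the 16 fits. At an unadjusted p under 0.05, 5.91% of all genes tested were higher and 5.17% lower. Of this list 6 genes were higher and 3 lower at that p, with a median log2FC of 0.035. Below an unadjusted p of 0.01 they included *TALDO1* (log2FC 0.11) and *PGD* (log2FC 0.10) of the pentose phosphate pathway, the glycogen phosphorylase gene *PYGB* (log2FC 0.10) and the aldose reductase gene *AKR1B1* (log2FC −0.18), none of which passed the adjusted p in edgeR with the filter. In DESeq2 *TALDO1* (adjusted p = 0.0436) and *PYGB* (adjusted p = 0.0291) passed. *AKR1B1* had an adjusted p of 0.00388 without the filter and 0.00948 without NC replicate 2, but an unadjusted p of 0.0900 in DESeq2 and 0.0569 without PON1-OE replicate 3.

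The remaining 4 lists held no gene with an adjusted p under 0.05 in edgeR. Counts below are at an unadjusted p under 0.05, where 5.91% of all genes tested were higher and 5.17% lower. Of 17 other glucose and lactate carriers 7 were tested, with 0 higher and 1 lower. Of 17 other isozymes 4 were tested, with 0 in either direction, and *HKDC1* had a log2FC of 0.0032 (standard error 0.042). Of 11 genes of pyruvate entry into mitochondria 10 were tested, with 0 higher and 1 lower. Of 11 genes that control sugar flux 10 were tested, with 1 higher and 1 lower. The higher gene was *TXNIP*, which encodes a glucose-induced protein that restrains glucose uptake, with 73, 103 and 74 counts in the NC libraries and 106, 107 and 104 counts in the PON1-OE libraries and no overlap between groups (log2FC 0.45, standard error 0.15, unadjusted p = 0.00838, adjusted p = 0.243).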

How the data were processed

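RNA-seq was performed on poly(A) RNA of 3 NC and 3 PON1-OE HCCLM3 libraries. The deposited values were estimated counts for each gene without normalization, 10.5% of which were fractional. The submitters' processing notes name Bowtie2 2.2.8, HISAT2, StringTie 1.3.1 and DESeq2, and the genome build and annotation are not given in the sources used here. Columns were assigned to libraries by name.

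Here the estimated counts were rounded and fitted in R 4.3.3 with edgeR 4.0.16 (filterByExpr, TMM, glmQLFit and glmQLFTest, a design of group alone), with Benjamini-Hochberg adjustment across the 11958 genes kept. The standard error is |log2FC| divided by the square root of F, and CPM are scaled by TMM. The threshold for |log2FC| of 0.585 is that of the paper. The fit was repeated with unrounded values, RLE scaling, a minimum of 10 counts per library or no filter, DESeq2 1.42.0, limma-voom (limma 3.58.1), with the replicate number as a block and with each library left out. Limma-trend with and without splines of GC content and length, and the shares at 100 CPM or more, were added after the data had been seen. A floor of 3 counts equals 0.166 to 0.192 CPM and covers counting error only. Scripts were tested on simulated counts. Pairs of libraries within a group differed by more than sampling noise (chi-square per degree of freedom 2.11 to 4.11).

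Of the table's identifiers 20126 are in GENCODE v29 (GRCh38), from which exon lengths were taken, and promoters came from RefSeq (GRCh38.p14). The members, lists, isozyme families and motifs were chosen with earlier results of these data known. Values are given per library for members with an unadjusted p under 0.05 and for a fixed set of key isozymes. Listed genes outside the members are named where the adjusted p is under 0.05 or the unadjusted p under 0.01, and *HKDC1* because it holds over 10% of its family. Some genes of the lists and families are not reported here.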

Additional observations from a re-analysis of the deposited data

How the results depend on the processing

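The count of members with an adjusted p under 0.05 was 0 in edgeR and under every alternative except DESeq2, where it was 2. The median log2FC of the members was 0.047 to 0.078 with single libraries left out and 0.054 without the filter. The count of members with an unadjusted p under 0.05 was 7 to 11 with single libraries left out, 6 to 9 of them higher and 1 to 2 lower. The share of all genes at that unadjusted p was not taken in the alternative fits, so these counts have no background beside them. Over all genes, 81 had an adjusted p under 0.05 (60 higher, 21 lower) and 6 also passed the fold threshold. Without the filter these were 177 (116 higher, 61 lower) and 23. In DESeq2, among 15540 genes with a p-value, 92 were higher at that adjusted p and 1 gene passed the fold threshold. With single libraries left out the counts were 11 to 103 (9 to 72 higher, 2 to 31 lower) and 4 to 10. The lowest count of 11 came without NC replicate 3, and the 10 past the fold threshold without NC replicate 2. The cause was not tested.

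Same-numbered libraries did not deviate together (correlations of 0.037, −0.082 and −0.035 for replicates 1 to 3), so the numbers were not taken as pairs. With the replicate number as a block 40 genes had an adjusted p under 0.05 (29 higher, 11 lower) and 0 members did. The list genes *PHGDH* and *PSAT1* lost their call under the block (adjusted p = 0.0689 and 0.105), and 9 of the 10 members with an unadjusted p under 0.05 kept it.

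Of the 30 tested members 7 turned sign in some fit. These were *HK2* (−0.16), *PC* (−0.022), *PFKM* (−0.061) and *PGAM1* (−0.047) without PON1-OE replicate 2, *PDK1* (−0.049) without NC replicate 3, *PFKFB2* (−0.052) without PON1-OE replicate 1, *PDK3* (−0.011) without PON1-OE replicate 3, *PFKM* (−0.014) and *PGAM1* (−0.017) without NC replicate 1 and *PFKM* (−0.023) without NC replicate 2. *PFKM* was also −0.00032 in limma-voom, −4.2e-05 in limma-trend and −0.0037 with GC content and length taken out, and *PGAM1* −0.0010, −0.00079 and −0.021 there and −0.00039 with the replicate block. None of the 7 had an unadjusted p under 0.05 in any fit. With single libraries left out the log2FC ranged from −0.16 to 0.35 for *HK2*, −0.022 to 0.12 for *PC*, −0.049 to 0.15 for *PDK1*, −0.061 to 0.064 for *PFKM*, −0.047 to 0.032 for *PGAM1*, −0.052 to 0.10 for *PFKFB2* and −0.011 to 0.13 for *PDK3*. The difference in the *SLC16A3* share was 3.30 percentage points and 2.72 with the longest transcript as gene length. With single libraries left out, the differences in the leading share were −0.97 to 0.55 for *HKDC1*, 0.090 to 0.96 for *PFKP*, −0.069 to 0.053 for *ALDOA*, −0.29 to 0.19 for *ENO1*, −1.38 to −0.26 for *LDHB*, −0.73 to −0.22 for *PFKFB3* and 0.75 to 3.45 for *PDK3*, in percentage points.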

Other observations

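A list of 19 genes of the hypoxia response outside glycolysis was read beside the members, since many members are known HIF-1 targets. Of these 18 were tested, with 6 log2FC values above 0 and 12 below, and a median log2FC of −0.027. Over all genes tested 5863 lay above 0 and 6095 below. At an unadjusted p under 0.05 in edgeR, 1 of the 18 was higher and 1 lower, where 5.91% of all genes tested were higher and 5.17% lower. At an adjusted p under 0.05, 1 was higher and 0 lower, where 0.502% and 0.176% of all genes tested were. A part of HIF-1 in these differences was not tested. *NDRG1*, a stress gene induced by hypoxia, rose in PON1-OE, with 496, 504 and 494 CPM in the NC libraries and 639, 580.1 and 639.8 CPM with PON1-OE (log2FC 0.31, standard error 0.038, unadjusted p = 6.12e-08, adjusted p = 0.000183 in edgeR) and no overlap between groups. Its adjusted p was under 0.05 in all 16 fits, with a log2FC between 0.29 and 0.36. *CA12*, which encodes a membrane carbonic anhydrase, had 555 ± 9.53 CPM in the controls and 511 ± 13.8 CPM with overexpression (SD, n = 3 libraries each) (log2FC −0.12, standard error 0.034, unadjusted p = 0.00272, adjusted p = 0.157), with all PON1-OE libraries below all NC libraries and an adjusted p of 0.0346 in DESeq2. *HIF1A* itself had 191 ± 4.61 CPM in the controls and 181 ± 6.796 CPM with overexpression (SD, n = 3 libraries each) (log2FC −0.070, standard error 0.041, unadjusted p = 0.104, adjusted p = 0.567), and *VHL*, the gene of the ubiquitin ligase subunit that marks HIF-1α for degradation, had 70.6 ± 3.93 CPM in the controls and 69.7 ± 1.75 CPM with overexpression (SD, n = 3 libraries each) (log2FC −0.018, standard error 0.055, unadjusted p = 0.743, adjusted p = 0.9397), both with overlapping groups. *HIF1A* and *VHL* were named for their place in this pathway after their values were seen. Their values are RNA levels, which do not measure the degradation of HIF-1α protein.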
